A study of Homo sapiens with 9 samples.

Results

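The genes of cholesterol synthesis, uptake and transport, and of the control of the transcription factor SREBP2, were followed in MDA-MB-231 cells that had survived the ferroptosis inducers erastin or RSL3. The 30 genes were chosen by name for their roles in this pathway, from the 58735 genes in the count tables. Earlier results of these data were known when they were chosen. All 30 passed the filter on low counts and were among the 16188 genes tested. MDA-MB-231 is a triple-negative breast cancer line. Erastin blocks the import of cystine, and RSL3 inhibits the lipid peroxide reductase GPX4. RNA was sequenced from 3 libraries of vehicle-treated cells (DMSO), 3 of cells surviving increased erastin treatment (erastin-R) and 3 of cells surviving increased RSL3 treatment (RSL3-R). The survivors were drug-selected populations of a single parental line. The study's methods describe its tolerant lines as attached cells that outlived a first exposure and were then kept in drug, whose concentration was raised in steps. The paper introduces its resistant lines after the sequencing, and does not state that the sequenced survivors were those lines. The labels name only the drug, and whether the populations were clonal was not given in the sources used here. Nothing in the labels said whether libraries of 1 group came from separate cultures, so p-values measure the spread between libraries, which may be technical.

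Cholesterol is built from acetyl-CoA through mevalonate to farnesyl diphosphate, squalene, lanosterol and a series of sterol intermediates. When sterols run low in the endoplasmic reticulum, SCAP escorts SREBP2 to the Golgi, where it is cut by proteases and released to the nucleus to activate the genes of the pathway. When sterols are plentiful, INSIG proteins hold SCAP back, and the nuclear receptor LXR turns on genes that lower cellular cholesterol. Farnesyl diphosphate also feeds branches that make ubiquinone, dolichol and the prenyl groups of proteins.

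Total counts ranged from 15405102 to 17273464 per library. Levels are given below as CPM (counts scaled to an equal library total) after TMM normalization, and changes as log2 fold changes from edgeR's quasi-likelihood test with Benjamini-Hochberg adjustment over all genes tested. A gene is said to have risen or fallen where its adjusted p was under 0.05. Both comparisons with vehicle share the same 3 vehicle libraries. The mesenchymal markers expected of this line were high (VIM at 259 to 283 FPKM in the group means), the hormone receptor genes ESR1 and PGR had at most 12 and 2 counts in any library, and the leucocyte gene CD3E at most 4. The epithelial gene CDH1 and the leucocyte gene PTPRC had at most 59 and 24 counts and were higher in RSL3-R cells than in vehicle-treated cells (log2 fold changes 1.59 and 1.67, adjusted p = 0.0013 and 0.00818). EPCAM, another epithelial gene, had at most 48 counts. It passed the test in neither erastin-R nor RSL3-R cells (-0.696 and -0.373, adjusted p = 0.0648 and 0.314). Of the mesenchymal markers, CD44 fell in both survivors (-0.155 and -0.425, adjusted p = 0.0343 and 3.42e-05). AXL rose in both (0.585 and 0.401, adjusted p = 2.01e-06 and 7.32e-05). The part of these marker genes in the results was not tested. Erastin-R replicate 1 stood apart. Its counts differed from those of the other 2 erastin-R libraries by 23.4 and 24.1 times the variance that counting alone gives, whereas all other pairs of libraries within a group differed by 2.43 to 5.28 times. Counts of genes at adjusted p under 0.05, and calls of the 30 genes that change without it, are given both ways.

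In erastin-R cells, 19 of the 30 genes fell, 3 rose and 8 did not pass the test. Of all genes tested in this comparison, 26.8% fell and 27.1% rose. The median log2 fold change of the 30 genes was -0.49, against -0.004 over all genes tested. In RSL3-R cells the picture was mixed, with 14 genes higher, 8 lower and 8 not past the test, beside 23.8% higher and 24.9% lower among all genes tested. The median of the 30 genes was 0.052 in RSL3-R cells. In the direct comparison of the survivors, 22 of the 30 genes stood higher with RSL3-R and 3 stood lower (NPC1, MYLIP and SCAP), beside 22.3% and 26.9% of all genes tested. Without erastin-R replicate 1, 20 genes fell and 5 rose in erastin-R cells, 14 rose and 11 fell in RSL3-R cells, and 23 were higher and 4 lower in RSL3-R than in erastin-R cells. Without that library more of all genes tested were called as well: 30.3% fell and 29.6% rose in erastin-R cells, 29.2% fell and 27.4% rose in RSL3-R cells, and 27.1% were higher and 4989 of 16619 lower in the direct comparison. The share of the 30 genes that fell in RSL3-R cells was then 36.7%.

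Most changes were smaller than 2-fold. With a change of at least 2-fold added to the call rule, ACAT2, FDPS and LSS remained lower and NPC1 remained higher in erastin-R cells, beside 6.66% and 6.70% of all genes tested. Without erastin-R replicate 1, LSS was under 2-fold (log2 fold change -0.98), while ACAT2, FDPS and NPC1 stayed past it (-1.245, -1.277 and 1.719). Shares of all genes under the 2-fold rule without that library are not given here. None of the 30 genes reached 2-fold in RSL3-R cells in either direction in edgeR, where log2 fold changes ran from -0.64 (EBP) to 0.91 (NPC1), beside 6.02% of all genes higher and 4.08% lower. Between the survivors, HMGCS1, FDPS, GGPS1, SC5D and LPIN1 exceeded 2-fold in favour of RSL3-R and none of the 30 was at least 2-fold lower, beside 6.86% and 3.48% of all genes tested.

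**Figure D1:**
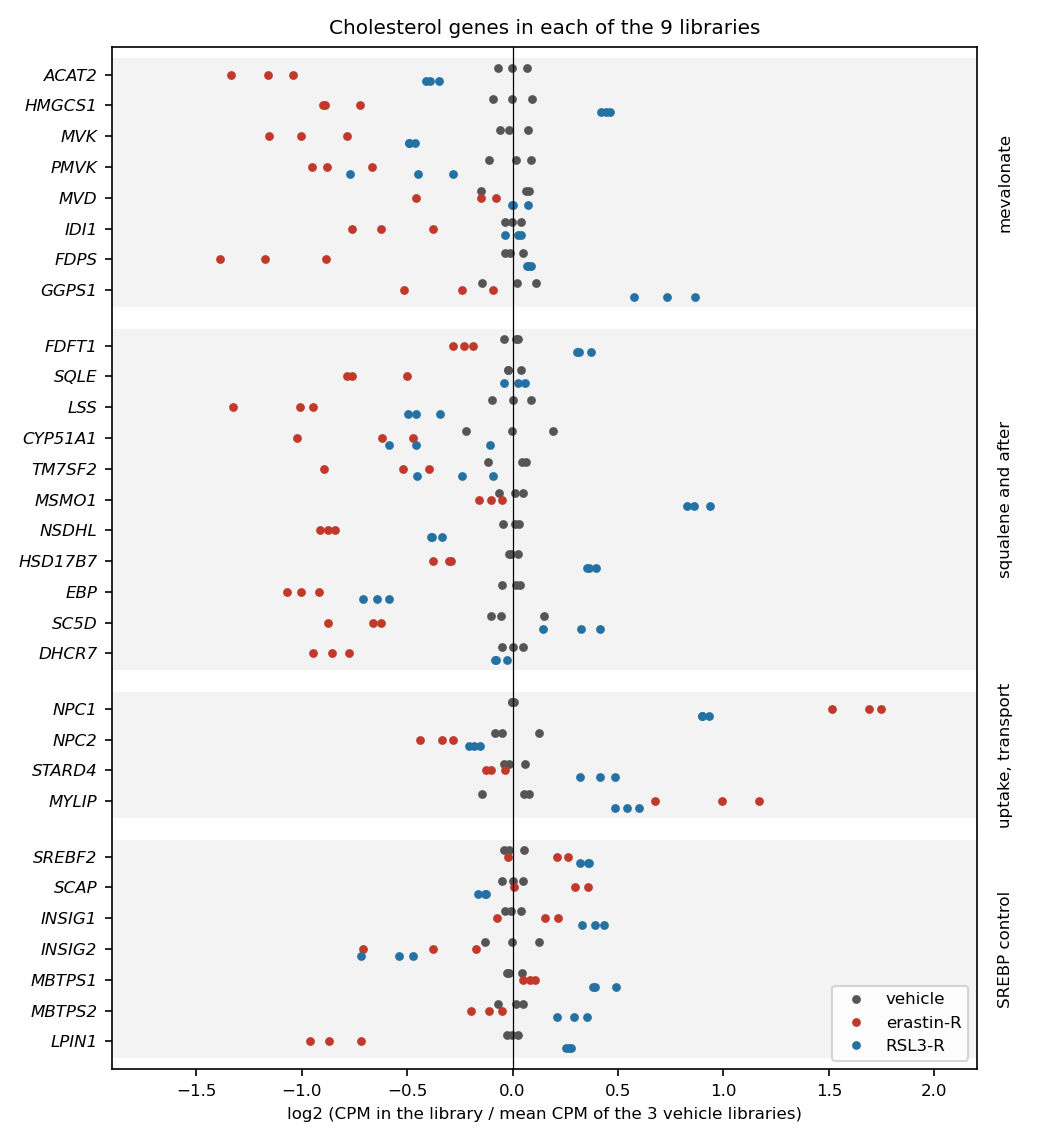
Level of each of the 30 genes in each of the 9 libraries, as the log2 ratio of its CPM to the mean of the 3 vehicle libraries (x axis, log2 scale), with genes grouped by pathway position (y axis). Each point is 1 library (vehicle grey, erastin-R red, RSL3-R blue). Most red points of the synthesis genes lie left of zero, the blue points scatter to both sides, and NPC1 lies far to the right in both survivors.

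Promoters are shown for 4 genes, which do not cover all patterns of change. No gene that fell in both survivors or rose in both is among them. SREBF2 encodes SREBP2 itself, and INSIG1 is an SREBP target that holds SCAP back. HMGCS1 and FDPS had the largest direct differences between the survivors of the mevalonate genes. Each line gives the 200 bases before the RefSeq start of the gene, 5′ to 3′ on the gene's own strand, from RefSeq (GRCh38.p14). Capitals mark the sterol regulatory element TCACNCCAC, the CCAAT box CCAAT, the GC box GGGCGG and the E-box CACGTG, each searched on both strands.
SREBF2 (chr22:41832905-41833104, plus strand): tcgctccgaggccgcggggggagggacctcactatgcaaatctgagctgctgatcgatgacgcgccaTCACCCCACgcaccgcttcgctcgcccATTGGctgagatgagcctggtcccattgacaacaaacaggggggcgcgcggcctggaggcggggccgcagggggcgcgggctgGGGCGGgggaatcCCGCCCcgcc
HMGCS1 (chr5:43313413-43313612, minus strand): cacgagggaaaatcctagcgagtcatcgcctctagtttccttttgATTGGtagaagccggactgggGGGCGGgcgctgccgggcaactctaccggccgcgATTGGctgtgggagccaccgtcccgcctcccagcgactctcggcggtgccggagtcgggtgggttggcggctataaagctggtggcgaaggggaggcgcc
FDPS (chr1:155308666-155308865, plus strand): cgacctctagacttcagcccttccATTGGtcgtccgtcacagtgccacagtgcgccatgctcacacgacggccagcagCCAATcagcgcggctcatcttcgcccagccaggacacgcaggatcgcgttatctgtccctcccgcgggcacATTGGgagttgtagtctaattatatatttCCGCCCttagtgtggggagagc
INSIG1 (chr7:155297678-155297877, plus strand): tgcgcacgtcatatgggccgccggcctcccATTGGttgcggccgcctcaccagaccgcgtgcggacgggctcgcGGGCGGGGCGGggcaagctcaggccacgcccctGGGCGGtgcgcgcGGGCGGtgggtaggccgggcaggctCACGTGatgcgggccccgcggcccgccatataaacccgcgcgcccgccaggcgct
A promoter of this kind was found in RefSeq for 27 of the 30 genes, but not for ACAT2, SQLE and FDFT1. In the 250 bases before the start, the sterol regulatory element as spelled here was present in 1 of the 27, SREBF2, where it lay 133 bases upstream, and in 0.875% of 27305 promoters of all genes. The CCAAT box was present in 17 of the 27 (63.0%) and in 33.0% of all promoters. The GC box was present in 23 of the 27 (85.2%), against 42.3% of all, and the E-box in SC5D, SCAP and INSIG1, against 6.49% of all. These matches describe letters in a window and were not tested as binding sites. The 27 genes were all among the genes tested, whereas the 27305 promoters include those of genes not tested. The shares are therefore not of like sets.

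The mevalonate steps were mostly lower in erastin-R cells. Of the 8 genes, 6 fell and none rose, all 8 log2 fold changes were negative, and their median was -0.83. Lower expression in fewer cells and less RNA in every cell cannot be told apart in these bulk libraries. Their summed level was 675.5 to 698 CPM in vehicle-treated cells, 387 to 399.5 in the erastin-R libraries and 709.5 to 712 in the RSL3-R libraries. In RSL3-R cells 2 rose, 3 fell and 3 did not pass the test. The 25% that rose is near the 23.8% of all genes tested. In the direct comparison 7 of 8 were higher in RSL3-R cells. The exception was PMVK, whose log2 difference of 0.34 was also positive. Counts at each pathway position are to be read against the shares of all genes tested given above. When erastin-R replicate 1 was left out, 7 of the 8 fell in erastin-R cells and the other counts of these genes were as above.

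ACAT2 (chr6:159760328-159779055, ENSG00000120437), the cytosolic thiolase that joins acetyl-CoA units at the start of the pathway, stood at 91.6, 95.9 and 101 CPM in the vehicle libraries, 46.6, 38.1 and 43.04 in erastin-R and 75.4, 73.3 and 72.2 in RSL3-R. The 3 groups did not overlap, with erastin-R lowest and RSL3-R between. It was 2.26-fold lower in erastin-R cells (log2 fold change -1.17, SE 0.077, adjusted p = 4e-08) and 1.3-fold lower in RSL3-R cells (log2 fold change -0.38, SE 0.075, adjusted p = 0.000785). FDPS (chr1:155308748-155320666, ENSG00000160752) makes farnesyl diphosphate, the branch point between sterols and isoprenoids. It was counted at 161, 154 and 151 CPM in vehicle-treated cells, 84.2, 59.4 and 68.9 in the erastin-R libraries and 164, 163 and 165 in the RSL3-R libraries. The erastin-R libraries lay far below both other groups (log2 fold change -1.13, SE 0.095, adjusted p = 3.57e-07). The RSL3-R libraries lay just above the vehicle range without passing the test (log2 fold change 0.080, 95% interval -0.12 to 0.28), so that FDPS differed 2.32-fold between the survivors (adjusted p = 3.53e-07). MVK (chr12:109573255-109598117, ENSG00000110921), mevalonate kinase, fell in both survivors, from 55.9, 59.5 and 54.2 CPM to 25.4, 32.8 and 28.2 in erastin-R and 40.2, 40.2 and 41.03 in RSL3-R. Its log2 fold changes were -0.97 and -0.48 (adjusted p = 7.78e-07 and 0.000417). Without knowledge of the strand setting, reads of overlapping genes on the opposite strand cannot be told apart from these. Other genes overlap 52.3% of the exon length of ACAT2 in all. The largest partner with counts, SOD2-OT1, covers 33.9% and had at most 1 count. Counts of the other partners of ACAT2 are not given here, so the part of their reads in its level is uncertain. RUSC1-AS1 covers 18.6% of FDPS and had at most 367, and MMAB covers 4.72% of MVK and had at most 1107.

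HMGCS1, the synthase of HMG-CoA, moved in opposite directions and is given by library for that reason, chosen after its values were seen. It stood at 125, 142 and 134 CPM in vehicle-treated cells, 80.9, 72.2 and 71.7 in the erastin-R libraries and 182, 184 and 179 in the RSL3-R libraries, with no overlap between any 2 groups. It fell 1.78-fold in erastin-R cells (adjusted p = 2.61e-07), rose 1.36-fold in RSL3-R cells (adjusted p = 8.59e-05) and differed 2.42-fold between them (log2 fold change 1.28, SE 0.068, adjusted p = 8.95e-09). IDI1, the isomerase of isopentenyl diphosphate, fell only to 96.01 ± 13.1 CPM in erastin-R cells from 143 ± 3.68 (SD, n = 3; log2 fold change -0.58, adjusted p = 4.27e-05). In RSL3-R cells it was at 144 ± 3.90 CPM, with a 95% interval of the log2 fold change of -0.16 to 0.18.

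PMVK, phosphomevalonate kinase, fell in both survivors (log2 fold changes -0.83 and -0.48, adjusted p = 0.00019 and 0.00891), but without RSL3-R replicate 1 the second was -0.33 with adjusted p = 0.0728. Its direct difference of 0.34 missed the threshold (adjusted p = 0.0595) and passed it without that library (0.50, adjusted p = 0.0123) or without erastin-R replicate 1 (0.43, adjusted p = 0.0137). MVD, the decarboxylase of mevalonate diphosphate, did not pass in either comparison with vehicle (log2 fold changes -0.22 and 0.023). It passed in erastin-R cells without vehicle replicate 3 (-0.29, adjusted p = 0.0283) or erastin-R replicate 2 (-0.30, adjusted p = 0.0238). Its small direct difference (0.24, adjusted p = 0.045) lost the call when any of 7 libraries was left out, all but vehicle replicate 3 and erastin-R replicate 2, with values from 0.14 without erastin-R replicate 1 to 0.29 without RSL3-R replicate 3. GGPS1, which lengthens farnesyl to geranylgeranyl diphosphate for protein prenylation, was the mevalonate gene with the largest rise in RSL3-R cells, from 14.5 ± 1.29 to 24.02 ± 2.38 CPM (SD, n = 3; log2 fold change 0.73, adjusted p = 0.000223). With erastin-R it was at 12 ± 1.73 CPM (log2 fold change -0.27, adjusted p = 0.0883), and past the test without erastin-R replicate 1 (-0.37, adjusted p = 0.013). Exons of TBCE on the same strand overlap 37.3% of the exon length of GGPS1, so their reads may not be separable.

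**Figure D2:**
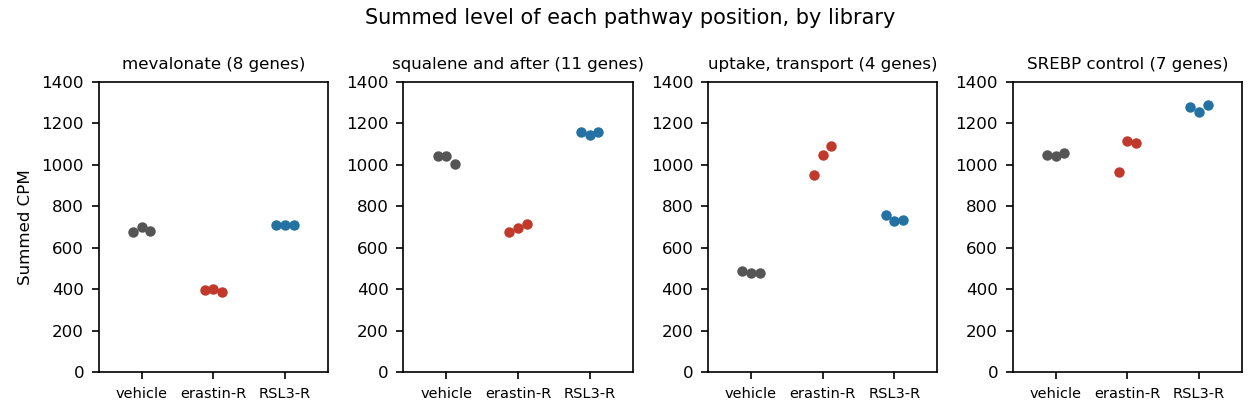
Summed CPM (y axis) of the genes of each pathway position in each library, by group (x axis). Each point is 1 library. Both synthesis panels are lowest in erastin-R cells, and the uptake and transport panel is highest there, at 951 to 1090 CPM, a sum made up mainly of NPC1.

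The squalene and sterol steps were also mostly lower in erastin-R cells. Of 11 genes, 10 fell and MSMO1 did not pass the test. All 11 log2 fold changes were negative, with a median of -0.69. The summed level was 1001 to 1043 CPM in vehicle-treated cells, 676 to 713 in the erastin-R libraries and 1142 to 1156 in the RSL3-R libraries. The RSL3-R sum includes a rise of MSMO1 alone from a mean of 169.3 to 310.4 CPM. The median log2 fold change of the 11 genes in RSL3-R cells was -0.062. In RSL3-R cells 4 of the 11 rose and 3 fell (36.4% and 27.3%, beside 23.8% and 24.9% of all genes tested). In the direct comparison 9 were higher in RSL3-R cells, and CYP51A1 and TM7SF2 did not pass the test. Leaving out erastin-R replicate 1, 5 of the 11 fell in RSL3-R cells. Per length, MSMO1 (57.9 ± 2.32 FPKM, SD, n = 3), DHCR7 (46.1 ± 1.49) and FDFT1 (39.98 ± 0.920) were the most abundant of these transcripts in vehicle-treated cells. The lowest value was that of CYP51A1 (3.21 ± 0.450), whose place in the order is uncertain because most of its exon length is shared with another annotated gene. The intervals of DHCR7 and FDFT1 did not overlap, nor did those of MSMO1 and DHCR7, taken as mean ± SD.

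LSS (chr21:46188141-46228824, ENSG00000160285), lanosterol synthase, closes squalene epoxide into the first sterol. Its vehicle libraries stood at 211, 198 and 185 CPM, its erastin-R libraries at 79.03, 98.3 and 103 and its RSL3-R libraries at 140.4, 156 and 144. The groups did not overlap, and LSS fell in both, 2.12-fold in erastin-R cells (adjusted p = 2.82e-07) and 1.35-fold in RSL3-R cells (adjusted p = 0.00105). EBP (chrX:48521158-48528716, ENSG00000147155), the sterol isomerase, followed the same order, at 60.3, 59.5 and 56.8 CPM in vehicle-treated, 29.4, 28.1 and 31.2 in erastin-R and 37.7, 36.1 and 39.3 in RSL3-R libraries. Its falls were 1.99-fold (adjusted p = 9.54e-08) and 1.56-fold (adjusted p = 5.7e-06), the latter the largest decrease of any of the 30 genes in RSL3-R cells. NSDHL (chrX:152830967-152869729, ENSG00000147383), the dehydrogenase that takes part in removing methyl groups from sterols, was at 29.3, 29.6 and 28.1 CPM, then 16.2, 15.4 and 15.8 in erastin-R and 22.2, 22.2 and 23.03 in RSL3-R libraries. Again erastin-R was lowest and the groups did not overlap (adjusted p = 9.55e-07 and 0.0017 against vehicle).

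SQLE (chr8:124998497-125022283, ENSG00000104549), squalene epoxidase, a rate-controlling enzyme of the sterol branch, was at 64.1, 61.3 and 61.4 CPM in vehicle-treated cells, 44.01, 36.7 and 36.2 in the erastin-R libraries and 63.3, 60.6 and 64.9 in the RSL3-R libraries. It fell in erastin-R cells (log2 fold change -0.68, SE 0.080, adjusted p = 9.19e-06). In RSL3-R cells its libraries spanned the vehicle range, and the 95% interval of the log2 fold change was -0.15 to 0.18. DHCR7, the reductase that acts on the dehydro precursor of cholesterol, was also lower in erastin-R cells, at 194 ± 6.60 CPM in vehicle-treated, 107 ± 6.24 in the erastin-R group and 186 ± 4.21 in the RSL3-R group (SD, n = 3). Its log2 fold changes were -0.86 (adjusted p = 6.98e-08) and -0.062 (adjusted p = 0.413).

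MSMO1, the oxidase that begins the removal of sterol methyl groups, is given by library because it showed the largest rise among the synthesis genes in RSL3-R cells, a choice made after its values were seen. It stood at 162, 175 and 170.4 CPM in vehicle-treated cells, 152, 163 and 158 in the erastin-R libraries and 324, 300.1 and 307 in the RSL3-R libraries. The vehicle and erastin-R libraries overlapped (log2 fold change -0.10, 95% interval -0.23 to 0.023), and all RSL3-R libraries lay far above both (log2 fold change 0.88, SE 0.059, adjusted p = 4.14e-08). NSDHL, which acts with MSMO1 on the same methyl groups, was lower in both survivors (above). HSD17B7, the keto-sterol reductase of the same steps, went from 35.1 ± 0.549 CPM to 28.1 ± 0.867 in the erastin-R group and 45.4 ± 0.697 in the RSL3-R group (adjusted p = 0.00138 and 0.000472). A fall and a rise were likewise seen for FDFT1, squalene synthase, at 210.2 ± 5.25, 179 ± 5.99 and 264 ± 6.89 CPM in the same order of groups (adjusted p = 0.0025 and 0.00019).

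SC5D, the desaturase acting on lathosterol, was at 39.3 ± 3.69 CPM in vehicle-treated cells, 23.9 ± 2.19 in the erastin-R group and 48.3 ± 4.52 in the RSL3-R group. Its fall was clear of the vehicle range (log2 fold change -0.71, adjusted p = 4.18e-05), but its rise overlapped it (log2 fold change 0.30, adjusted p = 0.0195). That rise was lost without vehicle replicate 1 (0.27, adjusted p = 0.0728), vehicle replicate 2 (0.25, adjusted p = 0.096) or RSL3-R replicate 1 (0.28, adjusted p = 0.0609). CYP51A1, the lanosterol demethylase, and TM7SF2, a sterol reductase, fell in erastin-R cells (log2 fold changes -0.69 and -0.59, adjusted p = 0.00375 and 0.00185). In RSL3-R cells they were at -0.37 and -0.25 without passing the test (adjusted p = 0.0839 and 0.125). Both passed it without erastin-R replicate 1 (adjusted p = 0.0201 and 0.0294), and CYP51A1 also without RSL3-R replicate 2 (-0.52, adjusted p = 0.0347). With only the 2 groups compared in the model both passed as well (adjusted p = 0.0263 and 0.0381). The direct difference of TM7SF2 (0.34, adjusted p = 0.0505) passed in 6 of 14 alternative fits. Among these were DESeq2 (0.35, adjusted p = 0.0367) and the fits without erastin-R replicate 3 (0.44) or RSL3-R replicate 1 (0.46). CYP51A1 had at most 223 counts, and 79.4% of its exon length overlaps another annotated gene on the same strand, AC000120.2, which had at most 1 count. Reads in the shared part may have been lost to CYP51A1, so its level is uncertain. Of the 50-base stretches of HSD17B7, 14.2% also occur elsewhere, mainly in its pseudogene HSD17B7P2.

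**Figure D3:**
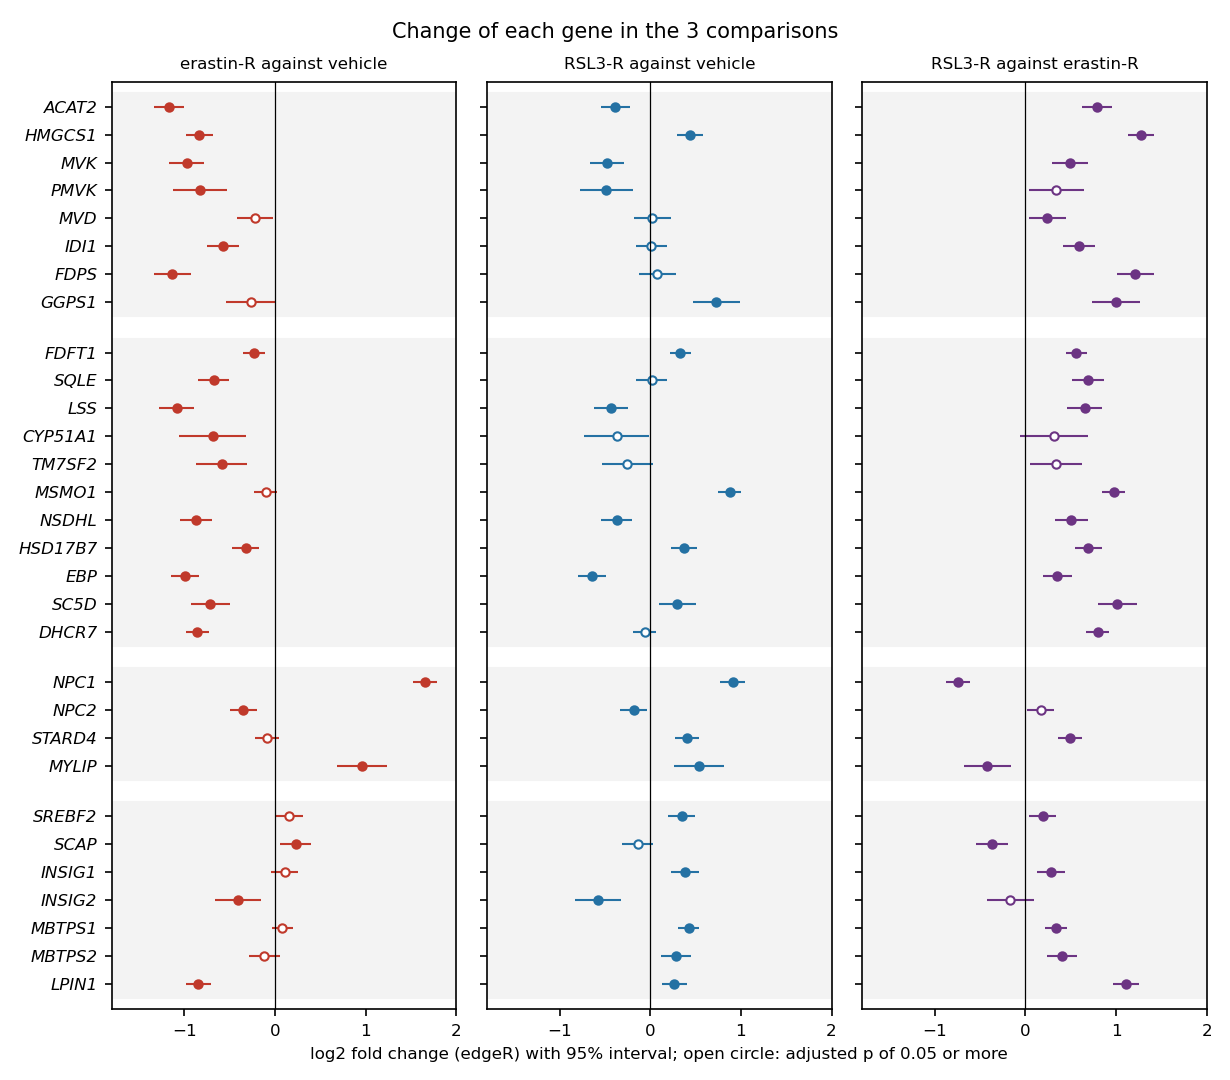
Log2 fold change of each gene (x axis, edgeR) with its 95% interval in the 3 comparisons, genes ordered by pathway position (y axis). Filled circles passed an adjusted p of 0.05 and open circles did not. In the left panel 19 genes are filled and left of zero, and in the right panel 22 are filled and right of it.

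Of the 4 genes of sterol uptake and transport, 2 rose and 1 fell in erastin-R cells and 3 rose and 1 fell in RSL3-R cells, with median log2 fold changes of 0.44 and 0.48. The 25% that fell in each is near the shares of all genes tested, 26.8% and 24.9%. In the direct comparison 1 was higher in RSL3-R cells (25%, beside 22.3% of all genes tested) and 2 were lower. Without erastin-R replicate 1, 2 were higher and 2 lower. NPC1 (chr18:23506184-23586898, ENSG00000141458), the membrane protein that exports cholesterol from lysosomes, stood at 264, 262 and 262 CPM in vehicle-treated cells, 751, 848 and 883 in the erastin-R libraries and 501, 489.7 and 489 in the RSL3-R libraries. No group overlapped another. NPC1 rose 3.15-fold in erastin-R cells (log2 fold change 1.66, SE 0.063, adjusted p = 4.2e-10) and 1.88-fold in RSL3-R cells (log2 fold change 0.91, SE 0.062, adjusted p = 5.12e-08), in each case the largest rise of the 30 genes. It was lower in RSL3-R than in erastin-R cells (log2 difference -0.75, adjusted p = 5.41e-07). NPC2 encodes its soluble partner, which hands cholesterol to NPC1 inside the lysosome. It fell to 78.1 ± 4.31 CPM in erastin-R cells from 99.5 ± 7.78 (SD, n = 3; log2 fold change -0.35, adjusted p = 0.000793). In RSL3-R cells it stood at 87.9 ± 1.55 CPM, at the edge of the threshold (log2 fold change -0.18, adjusted p = 0.0463). This last call was lost in 9 of 14 alternative fits, DESeq2 among them, and without vehicle replicate 1 the value was -0.11. It was also lost without vehicle replicate 2 (-0.21) and without each RSL3-R library (-0.19 to -0.13). The direct difference of NPC2 missed the threshold (0.17, adjusted p = 0.0589) and passed it in 5 of 14 alternative fits. Among these were DESeq2 (0.19, adjusted p = 0.0471) and the fits without vehicle replicate 1 (0.17) or erastin-R replicate 1 (0.18).

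MYLIP (chr6:16129125-16148248, ENSG00000007944) encodes the ubiquitin ligase that directs lipoprotein receptors to degradation, and is a target of LXR. Its level was low, at 11.7, 11.9 and 10.2 CPM in vehicle-treated, 22.4, 17.9 and 25.2 in erastin-R and 17.02, 16.4 and 15.7 in RSL3-R libraries. All survivor libraries lay above the vehicle range, and the erastin-R libraries spread the most. The rises were 1.94-fold (log2 fold change 0.96, SE 0.13, adjusted p = 2.37e-05) and 1.45-fold (log2 fold change 0.54, SE 0.13, adjusted p = 0.00323). The difference between the survivors (-0.42, adjusted p = 0.0117) was lost without erastin-R replicate 3 (-0.31, adjusted p = 0.0628) or RSL3-R replicate 3 (-0.35, adjusted p = 0.0697). STARD4 (chr5:111496033-111512590, ENSG00000164211), a soluble sterol carrier and SREBP2 target, stood at 104, 106 and 112 CPM in vehicle-treated cells, 98.5, 105 and 100.1 in the erastin-R libraries and 150.4, 134 and 143 in the RSL3-R libraries. Vehicle and erastin-R overlapped (95% interval of the log2 fold change -0.22 to 0.048), and RSL3-R lay above both (log2 fold change 0.41, SE 0.062, adjusted p = 0.000104).

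**Figure D4:**
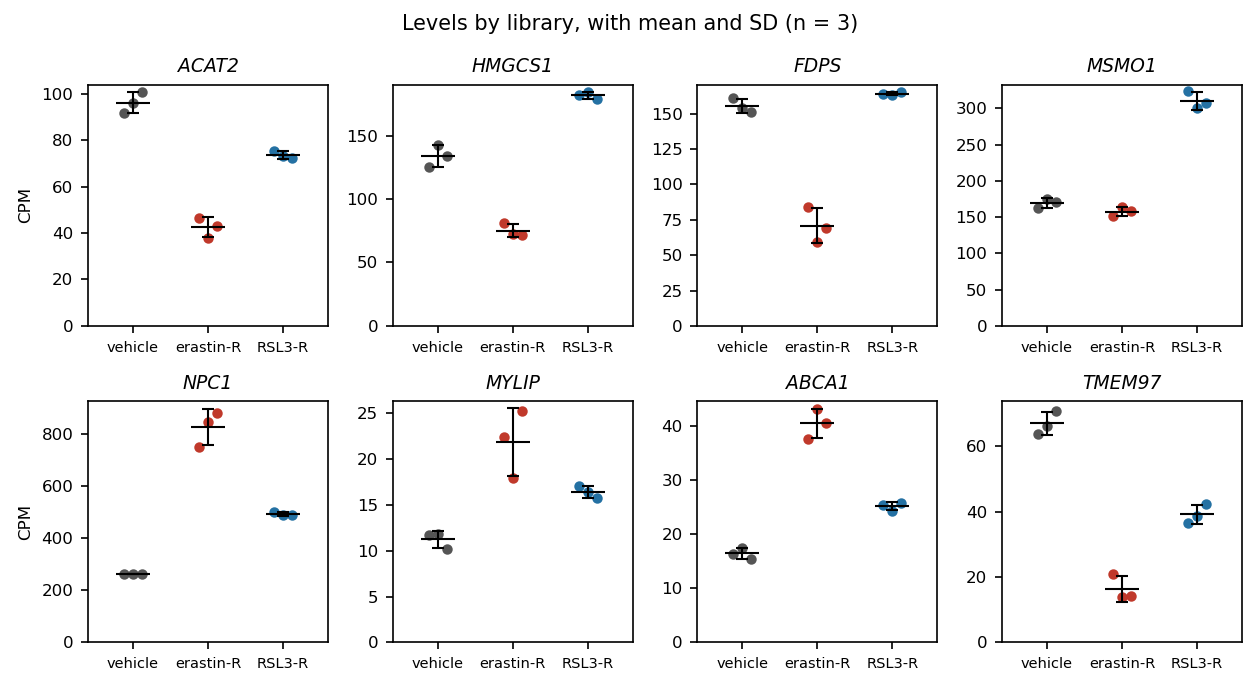
CPM (y axis) of 8 genes in each library by group (x axis), with the mean and SD of 3 libraries. ACAT2, HMGCS1, FDPS and TMEM97 are lowest in erastin-R cells, MSMO1 is highest in RSL3-R cells, and NPC1, MYLIP and ABCA1 rise from vehicle to RSL3-R to erastin-R cells.

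Of the 7 genes that control SREBP, SCAP rose, INSIG2 and LPIN1 fell and 4 did not pass the test in erastin-R cells (median log2 fold change 0.081). The 28.6% that fell is near the 26.8% of all genes tested. In RSL3-R cells 5 of the 7 rose and INSIG2 fell (median 0.29), beside 23.8% and 24.9% of all genes tested. Directly compared, 5 were higher and SCAP lower than in erastin-R cells, beside 22.3% and 26.9%. Without erastin-R replicate 1, 3 rose and 2 fell in erastin-R cells, 5 rose and 2 fell in RSL3-R cells, and 5 were higher and 2 lower in the direct comparison. SREBF2 (chr22:41833079-41907308, ENSG00000198911) stood at 299.8, 285 and 280.1 CPM in vehicle-treated cells, 284, 333 and 346 in the erastin-R libraries and 360, 369 and 371 in the RSL3-R libraries. Erastin-R replicate 1 lay within the vehicle range and the other 2 erastin-R libraries above it. The gene rose 1.27-fold in RSL3-R cells (log2 fold change 0.35, SE 0.070, adjusted p = 0.000957). In erastin-R cells it did not pass the test (log2 fold change 0.16, adjusted p = 0.0742) but did so without erastin-R replicate 1 (0.24, adjusted p = 3.57e-05). The direct difference (0.19, adjusted p = 0.0345) was 0.11 without that library, and was no longer past the test without vehicle replicate 2 (0.19), RSL3-R replicate 2 (0.19) or RSL3-R replicate 3 (0.22).

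INSIG1 (chr7:155297776-155310235, ENSG00000186480), the sterol sensor partner that retains SCAP and is itself induced by SREBP2, was the most abundant of the 30 transcripts per length in vehicle-treated cells, at 79.1 ± 2.29 FPKM (SD, n = 3). By library it stood at 285, 291 and 300.2 CPM in vehicle-treated cells, 278, 338 and 325 in the erastin-R libraries and 394, 366 and 383 in the RSL3-R libraries. It rose in RSL3-R cells (log2 fold change 0.39, SE 0.071, adjusted p = 0.000459). It was not past the test in erastin-R cells (log2 fold change 0.10, 95% interval -0.047 to 0.26), where again replicate 1 was the lowest of the group and the gene rose without it (0.18, adjusted p = 0.000825). INSIG2 (chr2:118088452-118110997, ENSG00000125629), its paralogue, stood at 45.1, 49.4 and 53.97 CPM, 30.3, 43.8 and 38.1 in erastin-R and 35.7, 34.1 and 30.04 in RSL3-R libraries. It was the only 1 of the 7 to fall in both survivors (log2 fold changes -0.41 and -0.57, adjusted p = 0.0104 and 0.00126). The fall in erastin-R cells lost its call without vehicle replicate 3 (-0.34, adjusted p = 0.0511), and the direct difference (-0.17, adjusted p = 0.266) passed the test without erastin-R replicate 1 (-0.30, adjusted p = 0.00432).

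LPIN1 (chr2:11677595-11827409, ENSG00000134324), a phosphatidate phosphatase that also acts in the nucleus on SREBP, stood at 118, 119.8 and 122 CPM in vehicle-treated cells, 73.02, 61.7 and 65.5 in the erastin-R libraries and 146, 143 and 144 in the RSL3-R libraries. It fell 1.8-fold in the former (adjusted p = 1.87e-07) and rose 1.2-fold in the latter (adjusted p = 0.00371), with no overlap between groups. MBTPS1 (chr16:84053761-84116906, ENSG00000140943), the protease that makes the first cut in SREBP, was at 154, 155 and 162 CPM, 162, 169 and 167 in erastin-R and 206, 205 and 221 in RSL3-R libraries. MBTPS2 makes the next cut and stood at 33.3 ± 1.42, 30.7 ± 1.57 and 40.6 ± 1.95 CPM (SD, n = 3). Both proteases rose in RSL3-R cells (log2 fold changes 0.42 and 0.29, adjusted p = 2.88e-05 and 0.00668). Neither passed the test in erastin-R cells (95% intervals -0.039 to 0.20 and -0.28 to 0.049). Exons of YY2 on the same strand cover 12.2% of MBTPS2. SCAP, the escort of SREBP, was at 106 ± 3.79 CPM in vehicle-treated, 125 ± 15.6 in the erastin-R group and 96.5 ± 1.43 in the RSL3-R group. Its rise in erastin-R cells (log2 fold change 0.23, adjusted p = 0.0273) came with overlapping groups. The rise was 0.33 without erastin-R replicate 1 and was lost without erastin-R replicate 2 (0.16), erastin-R replicate 3 (0.19), vehicle replicate 2 (0.22) or vehicle replicate 3 (0.20). It was also lost with only the 2 groups compared in the model (0.23, adjusted p = 0.0602). In RSL3-R cells SCAP was at -0.14 on the log2 scale (adjusted p = 0.168), and fell past the test without erastin-R replicate 1 (-0.14, adjusted p = 0.0122).

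Read across both comparisons with vehicle, the 30 genes fell into a few combinations. The 8 genes that fell in both survivors were ACAT2, MVK, PMVK, LSS, NSDHL, EBP, NPC2 and INSIG2. Another 6 fell in erastin-R cells and did not pass the test in RSL3-R cells (IDI1, FDPS, SQLE, CYP51A1, TM7SF2 and DHCR7). The 5 genes that fell in erastin-R and rose in RSL3-R cells were HMGCS1, FDFT1, HSD17B7, SC5D and LPIN1. A further 7 rose in RSL3-R cells and did not pass in erastin-R cells (GGPS1, MSMO1, STARD4, SREBF2, INSIG1, MBTPS1 and MBTPS2). NPC1 and MYLIP rose in both, SCAP rose in erastin-R cells and did not pass in RSL3-R cells, and MVD passed in neither. Because both comparisons share the vehicle libraries, these combinations are not 2 independent observations.

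Lists of neighbouring genes were counted in the same way, to be read against the shares of all genes tested given above (with erastin-R 27.1% higher and 26.8% lower, with RSL3-R 23.8% and 24.9%, directly 22.3% and 26.9%). Of 9 fatty acid targets of SREBP1, the paralogue that mainly drives fatty acid synthesis, 6 fell and none rose in erastin-R cells (median log2 fold change -0.36), 3 rose and 1 fell in RSL3-R cells (median 0.10), and 8 were higher and none lower in RSL3-R than in erastin-R cells (median 0.60). The desaturases FADS2 and FADS1 had the largest falls in erastin-R cells (log2 fold changes -1.17 and -0.74, adjusted p = 2.59e-08 and 1.19e-07). In RSL3-R cells FADS2 fell as well (-0.31, adjusted p = 0.00279) and FADS1 did not pass the test (0.049). The largest rises in RSL3-R cells were those of ACSS2, which makes acetyl-CoA from acetate, and the desaturase SCD (0.97 and 0.37, adjusted p = 2.18e-08 and 2.85e-05). Both fell in erastin-R cells (-0.16 and -0.68, adjusted p = 0.0449 and 9.67e-08). Directly compared, ACSS2 and SCD were 2.18-fold and 2.07-fold higher in RSL3-R cells. Without erastin-R replicate 1 these counts were 6 lower and 1 higher, 2 lower and 4 higher, and 0 lower and 8 higher.

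Among 15 tested of 16 other sterol enzymes and regulators, 6 fell and 5 rose in erastin-R cells, 4 fell and 4 rose in RSL3-R cells, and 6 were lower and 3 higher in RSL3-R than in erastin-R cells (medians -0.017, -0.055 and -0.082). In RSL3-R cells that was 26.7% in each direction, near the shares of all genes. Without erastin-R replicate 1, 6 fell and 6 rose, 6 fell and 5 rose, and 6 were lower and 3 higher. IDI2 was not tested. TMEM97, a sterol-responsive membrane protein that binds NPC1, stood at 63.9, 66.4 and 71 CPM in vehicle-treated cells, 21.1, 14 and 14.3 in the erastin-R libraries and 36.4, 38.7 and 42.4 in the RSL3-R libraries. It fell 4.07-fold and 1.71-fold (adjusted p = 2.76e-08 and 0.000112), opposite in direction to NPC1, and was 2.38-fold higher in RSL3-R than in erastin-R cells. MMAB, which shares its promoter region with MVK, had the next largest fall in erastin-R cells (-0.85, adjusted p = 2.39e-07), rose slightly in RSL3-R cells (0.18, adjusted p = 0.0336) and was 2.04-fold higher in RSL3-R than in erastin-R cells. LBR, a lamin B receptor with sterol reductase activity, fell in both survivors (log2 fold changes -0.72 with erastin-R and -0.61 with RSL3-R, adjusted p = 3.51e-07 and 2.03e-06). The difference between them was 0.12 (95% interval -0.015 to 0.25).

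The 15 tested of 17 genes of cholesterol storage, efflux and LXR response split, with 6 higher and 4 lower in erastin-R cells, 5 higher and 4 lower in RSL3-R cells, and 5 higher and 5 lower in the direct comparison (medians 0.004, 0.13 and -0.081). The counts left without erastin-R replicate 1 were 7 higher and 3 lower, 7 higher and 5 lower, and 4 higher and 7 lower. ABCA1, the cholesterol exporter induced by LXR, rose from 16.4, 17.5 and 15.5 CPM to 37.7, 43.2 and 40.6 in erastin-R and 25.4, 24.4 and 25.8 in RSL3-R libraries. The 3 groups did not overlap (log2 fold changes 1.30 and 0.61, adjusted p = 4.48e-08 and 6.16e-05), and the order was that of NPC1 and MYLIP. GRAMD1A, which moves cholesterol from the plasma membrane to the endoplasmic reticulum, rose in both survivors, by 0.95 with erastin-R and 0.31 with RSL3-R (adjusted p = 3.03e-07 and 0.00549). VLDLR, a lipoprotein receptor, also rose in both, by 0.50 and 0.74 (adjusted p = 3.04e-05 and 8.92e-07). ABCA1 and GRAMD1A were lower in RSL3-R than in erastin-R cells (-0.68 and -0.64), and VLDLR was higher (0.24, adjusted p = 0.00922). ABCG1 and GRAMD1B were not tested. In the non-sterol isoprenoid branch of 13 genes, 4 rose and 3 fell in erastin-R cells, 1 rose and 4 fell in RSL3-R cells, and none was higher and 2 lower in RSL3-R than in erastin-R cells in edgeR, with log2 differences of at most 0.15 (medians 0.021, -0.043 and -0.037). Without erastin-R replicate 1 the first 2 comparisons gave the same counts and the direct one 0 higher and 3 lower. ICMT, the methyltransferase that finishes prenylated proteins, fell from 188, 190 and 199 CPM to 80.2, 80.9 and 81.03 in erastin-R and 80.1, 86.5 and 88.3 in RSL3-R libraries. The survivors overlapped each other and lay well below vehicle (log2 fold changes -1.25 and -1.18, adjusted p = 2.11e-09 and 2.29e-09). PDSS1, which builds the tail of ubiquinone, fell in both (-0.79 and -0.83, adjusted p = 3.83e-05 and 3.03e-05), and RCE1 and DHDDS were lower in RSL3-R than in erastin-R cells (-0.80 and -0.36, adjusted p = 5e-05 and 0.00326). Against vehicle, both rose in erastin-R cells (0.28 and 0.29, adjusted p = 0.043 and 0.0112), while in RSL3-R cells RCE1 fell (-0.52, adjusted p = 0.00153) and DHDDS did not pass the test (-0.072). RCE1 cuts the end of prenylated proteins, and DHDDS makes the chain of dolichol.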

How the data were processed

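RNA of 9 MDA-MB-231 libraries was analysed. The authors deposited raw counts per gene and FPKM values for each library, and the counts were used as deposited for all tests, the FPKM values only for levels per length. The submitters' processing notes name HISAT2 2.0.5 and featureCounts 1.5.0-p3, and the study's methods state that only uniquely mapped reads in exons were used after oligo-dT selection. Whether counting used strand was not given in the sources used here, so genes that overlap others are named as uncertain.

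edgeR 4.0.16 under R 4.3.3 was used on the counts (filterByExpr, TMM, 1 quasi-likelihood model of all 9 libraries with no covariate). The standard error of each log2 fold change was derived from its F statistic. The common dispersion was 0.00732 (coefficient of variation 8.56%). Alternatives were DESeq2 1.42.0, its size factors, no filter on low counts, 2-group models, the replicate number as a block, a 2-fold minimum and each library left out. The counts of each list without erastin-R replicate 1 were added after seeing the data.

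The 30 genes and the lists were chosen with earlier results of these data known. Every member was named. Given by library were the 3 genes of each position with the largest change past the threshold against vehicle, plus SREBF2, INSIG1, INSIG2 and SQLE, and of each other list the 2 genes with the largest change past the threshold in each comparison were named, some of them by library. Some genes of the pathway are not reported here. Plots used matplotlib 3.10.9 (Python 3.11.15).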

Additional observations from a re-analysis of the deposited data

Results flagged for a closer look

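For 5 of the 30 genes the change against vehicle passed the test in opposite directions in the erastin-R and RSL3-R cells, and the direct difference between the survivors was past the test too (edgeR, adjusted over all genes tested). Genes chosen for opposite changes from the same vehicle libraries are nearly bound to differ directly, so these differences add no independent support. The log2 difference, RSL3-R minus erastin-R, was 1.28 for HMGCS1 (adjusted p = 8.95e-09), 1.11 for LPIN1 (adjusted p = 2.52e-08), 1.01 for SC5D (adjusted p = 2.54e-06), 0.69 for HSD17B7 (adjusted p = 2.84e-06) and 0.56 for FDFT1 (adjusted p = 2.21e-06). In each of the 5, all 3 RSL3-R libraries lay above all 3 erastin-R libraries, which the choice of these genes also nearly fixes. The rise of SC5D in RSL3-R cells overlapped the vehicle range and lost its call without vehicle replicate 1, vehicle replicate 2 or RSL3-R replicate 1, with log2 fold changes of 0.25 to 0.28.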

How the results depend on the processing

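No change past the threshold in any of the 3 comparisons turned its direction under any alternative run. With at least 2-fold added to the rule, the counts became 1 higher and 3 lower with erastin-R, 0 and 0 with RSL3-R, and 5 and 0 between the survivors. Of the 3 lower, LSS was under 2-fold without erastin-R replicate 1 (log2 fold change -0.98). With each library left out in turn, the number higher in erastin-R cells ranged from 2 to 5, where 5 came without erastin-R replicate 1, which added SREBF2 and INSIG1. The replicate block gave 3 higher and 19 lower with erastin-R, 14 and 7 with RSL3-R, and 23 and 3 between the survivors. It took the call from NPC2 in RSL3-R cells and gave one to TM7SF2 between the survivors. Libraries with the same number did not deviate together (mean correlation -0.005 over 9 pairs, and 0.003 over 18 pairs with different numbers). With 3 libraries a group this cannot settle whether equal numbers were handled together, which the labels do not say. DESeq2 gave 3 and 19, 14 and 7, and 24 and 3. With only the 2 groups compared in the model, 11 genes fell in RSL3-R cells. The shares of all genes called with the block, DESeq2 and the 2-group models are not given here. Shifts in these counts can therefore not be read as particular to the 30 genes. DESeq2's size factors shifted the median of all genes by at most 0.016 on the log2 scale. Of the 30 genes CYP51A1, with at most 223 counts, had the largest standard errors, and smaller changes were less detectable there. The part of depth in this and the causes of the lost calls were not tested.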

Other observations

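Genes of the neighbouring lists outside the naming rule are given here and were chosen after their values were seen. In erastin-R cells the endoplasmic reticulum ubiquitin ligases SYVN1, RNF139 and RNF145 exceeded their vehicle levels, by log2 fold changes of 0.42, 0.31 and 0.19 (edgeR, adjusted p = 6.73e-05, 0.0262 and 0.0153). In RSL3-R cells RNF139 and SYVN1 rose (0.38 and 0.17, adjusted p = 0.00975 and 0.0361), while RNF145 was at -0.005 without passing the test. LIPA, which frees cholesterol from its esters in the lysosome where NPC1 acts, fell in both survivors, from 71.6 ± 6.11 CPM to 46.1 ± 2.57 with erastin-R and 58.9 ± 2.69 with RSL3-R (SD, n = 3; adjusted p = 1.25e-05 and 0.00783). OSBP, which carries cholesterol between the endoplasmic reticulum and the Golgi, rose in both, by 0.92 and 0.47 on the log2 scale (adjusted p = 2.44e-08 and 1.46e-05).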
